A study of Mus musculus with 12 samples.

Results

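Nova1, Nova2, Ptbp1, Ptbp2, Mbnl1, Mbnl2, Srrm4, Elavl2, Elavl3 and Elavl4 are 10 genes for proteins that regulate pre-mRNA splicing in neurons. They were picked by gene name from the gene models with which RNA-seq data of the mouse nucleus accumbens (NAc) had been processed. The members had 57 of the 87740 transcripts in these models, and each lay at 1 of the 35406 loci, with no other gene name at that locus. The study sequenced polyA RNA from 12 pools of NAc, a region of the ventral striatum with a role in reward, in 4 groups of 3 pools. All animals were male C57BL/6 mice (C57BL/6 J in the study's methods). The labels give an age of 8 to 10 weeks and 3 to 5 animals per pool, while the paper states 8 weeks and 5 animals per pool. Repeated cocaine was 20 mg/kg given i.p. daily for 7 days, with 7 days of saline as its control, and acute cocaine was 6 days of saline followed by 1 day of cocaine at 20 mg/kg, with 7 days of saline as its own control. NAc was taken 24 h after the last injection. The models give positions of exons on mm9 (NCBIM37) and are 1 set, with no value of any single pool. Levels of these genes, differences between cocaine and saline, sequencing depth and markers of the tissue were therefore not analysed here, there are no replicates behind any value below, and no test was made.

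A splicing regulator binds short motifs in pre-mRNA near an exon and raises or lowers the inclusion of that exon, often with opposite effects from opposite sides of it. NOVA proteins bind YCAY motifs, PTB proteins bind stretches of pyrimidines, muscleblind-like (MBNL) proteins bind YGCY motifs and neuronal ELAV-like (Hu) proteins bind stretches rich in U. SRRM4 acts on the inclusion of microexons, the very short exons of neuronal transcripts. Many of these regulators are spliced under their own control or that of a paralogue, either through cassette exons that keep the reading frame or through exons whose loss brings in an early stop codon, by which the transcript is broken down in nonsense-mediated decay (NMD). PTBP1, which is widely expressed outside neurons, represses an exon of Ptbp2, the form of neurons, in this way.

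The cassette exons of 150 nt or fewer that lie wholly within coding sequence are printed first, because the results turn on them. The exons of paralogues that they pair with, such as the 34-nt exon of Ptbp2, are printed beside them. The partly coding cassette exons of 91 nt in Elavl2 and 87 nt in Elavl4 are not printed. The exons of Nova1 and Srrm4 are added as short exons of genes without a cassette exon, and the 36-nt exon of Mbnl1 for its comparison with Mbnl2. In each sequence the exon stands in capitals and 40 bases of intron on either side in lower case, 5′ to 3′ on the strand of the transcript, from the NCBIM37 genome. Positions are those of the exon. The bases after the 30-nt exon of Ptbp1 are intron in the transcripts that use this exon and part of a longer exon, such as that of 320 nt, in others. Longer exons of other transcripts also hold the bases before the 30-nt and 31-nt exons of Ptbp1 and those on both sides of its 34-nt exon. The same is true of the bases before the 39-nt exon of Elavl2.
Ptbp1, 34 nt, chr10:79324759-79324792, plus strand: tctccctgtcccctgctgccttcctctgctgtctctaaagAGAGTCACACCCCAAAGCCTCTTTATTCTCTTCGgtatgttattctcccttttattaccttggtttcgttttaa
Ptbp2, 34 nt, chr3:119427530-119427563, minus strand: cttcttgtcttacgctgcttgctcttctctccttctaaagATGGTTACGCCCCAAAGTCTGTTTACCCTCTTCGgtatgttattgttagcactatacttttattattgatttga
Ptbp1, 78 nt, chr10:79322862-79322939, plus strand: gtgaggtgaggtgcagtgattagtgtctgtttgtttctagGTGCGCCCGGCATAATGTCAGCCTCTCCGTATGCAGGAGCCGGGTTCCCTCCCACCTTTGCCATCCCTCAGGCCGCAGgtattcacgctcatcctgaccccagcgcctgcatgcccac
Ptbp1, 31 nt, chr10:79319249-79319279, plus strand: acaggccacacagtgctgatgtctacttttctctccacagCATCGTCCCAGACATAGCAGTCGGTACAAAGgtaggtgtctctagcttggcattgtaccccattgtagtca
Ptbp2, 31 nt, chr3:119484422-119484452, minus strand: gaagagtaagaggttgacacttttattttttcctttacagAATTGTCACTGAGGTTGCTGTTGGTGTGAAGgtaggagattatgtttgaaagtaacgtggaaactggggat
Ptbp1, 30 nt, chr10:79321697-79321726, plus strand: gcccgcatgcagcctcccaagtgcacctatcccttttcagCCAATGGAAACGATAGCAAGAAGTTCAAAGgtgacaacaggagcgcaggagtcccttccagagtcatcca
Mbnl1, 95 nt, chr3:60426068-60426162, plus strand: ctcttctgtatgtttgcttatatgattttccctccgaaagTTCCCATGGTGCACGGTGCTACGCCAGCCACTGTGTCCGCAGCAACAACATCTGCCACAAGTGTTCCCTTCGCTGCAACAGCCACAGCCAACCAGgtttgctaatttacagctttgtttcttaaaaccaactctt
Mbnl2, 95 nt, chr14:120803860-120803954, plus strand: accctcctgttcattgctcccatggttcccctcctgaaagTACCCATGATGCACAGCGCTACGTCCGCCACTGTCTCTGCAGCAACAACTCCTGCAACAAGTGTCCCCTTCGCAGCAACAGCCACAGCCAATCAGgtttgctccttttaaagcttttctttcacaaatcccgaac
Mbnl2, 54 nt, chr14:120794934-120794987, plus strand: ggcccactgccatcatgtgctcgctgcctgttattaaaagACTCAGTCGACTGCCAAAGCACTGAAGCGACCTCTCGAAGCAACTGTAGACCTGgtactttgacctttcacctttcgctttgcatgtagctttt
Mbnl1, 36 nt, chr3:60425345-60425380, plus strand: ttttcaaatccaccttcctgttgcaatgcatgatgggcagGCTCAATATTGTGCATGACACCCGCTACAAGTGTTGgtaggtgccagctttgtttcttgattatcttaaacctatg
Elavl2, 39 nt, chr4:90920832-90920870, minus strand: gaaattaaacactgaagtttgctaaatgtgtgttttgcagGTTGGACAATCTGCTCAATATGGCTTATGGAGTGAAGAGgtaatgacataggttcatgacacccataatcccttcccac
Elavl3, 39 nt, chr9:21829118-21829156, minus strand: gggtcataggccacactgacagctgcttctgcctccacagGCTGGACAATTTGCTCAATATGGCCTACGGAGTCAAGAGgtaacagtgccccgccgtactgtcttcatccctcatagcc
Elavl4, 39 nt, chr4:109882345-109882383, minus strand: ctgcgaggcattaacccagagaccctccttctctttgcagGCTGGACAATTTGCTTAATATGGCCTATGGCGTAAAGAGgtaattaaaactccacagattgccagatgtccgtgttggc
Nova1, 72 nt, chr12:47814485-47814556, minus strand: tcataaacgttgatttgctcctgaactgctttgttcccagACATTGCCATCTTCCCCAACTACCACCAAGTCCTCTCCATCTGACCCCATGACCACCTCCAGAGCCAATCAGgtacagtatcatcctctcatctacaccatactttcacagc
Srrm4, 27 nt, chr5:116922516-116922542, minus strand: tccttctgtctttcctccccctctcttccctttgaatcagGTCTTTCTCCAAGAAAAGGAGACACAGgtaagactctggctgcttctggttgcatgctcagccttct

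The number of transcripts differed widely among the members. Nova1, Nova2, Ptbp2 and Elavl3 had 1 transcript each, Srrm4 had 3, Mbnl1 and Mbnl2 had 4 each, Elavl4 had 12, Elavl2 had 13 and Ptbp1 had 17. The median was 3.5 transcripts, beside 2.0 over all 22206 loci with a protein identifier, and 4 of the 10 members had a single transcript, beside 43.1% of those loci. Ptbp1 had more transcripts than 99.2% of these loci, Elavl2 more than 97.6% and Elavl4 more than 96.8%. A protein identifier (p_id), which Cufflinks gives to transcripts with a coding sequence, was present in 45 of the 57 transcripts, and 43 different identifiers were in use. Transcripts that begin together share a start group (TSS group), of which the members had 33. Elavl4 had 9 of them, Ptbp1 7 and Elavl2 6, Mbnl1 and Srrm4 had 3 each, and the other 5 members had 1 each.

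**Figure D1:**
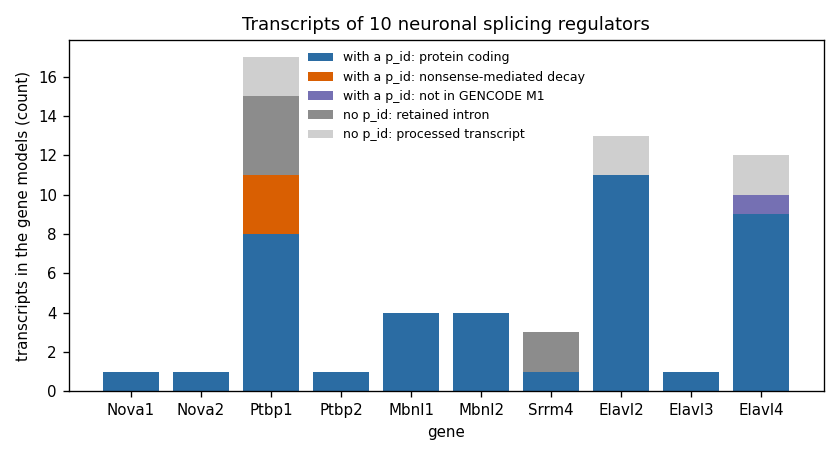
Number of transcripts of each member in the gene models (y axis, count), split by whether the transcript had a protein identifier (p_id) and by its type in GENCODE M1. Ptbp1, Elavl2 and Elavl4 carried 17, 13 and 12 of the 57 transcripts, and all 3 transcripts typed as nonsense-mediated decay belonged to Ptbp1.

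Ptbp1 was the shortest of the 10 genes, spanning 10.3 kb (chr10:79317172-79327516), while 6 of the members spanned over 10 times as much. Mbnl1 reached 156.6 kb, Mbnl2 156.0 kb, Srrm4 152.5 kb, Elavl2 149.2 kb, Elavl4 148.2 kb and Nova1 124.3 kb. The median span was 136.2 kb, against 15.2 kb over all loci with a protein identifier, and the median of the longest intron was 72.2 kb against 5.4 kb. Last exons were long as well, with a median of 3167 nt against 1041 nt. The last exon of Nova2 had 8147 nt, longer than that of 99.6% of the loci, and that of Nova1 had 6457 nt. Most of these bases were untranslated: the 3′ UTR had 7064 nt in Nova2 and 5452 nt in Nova1.

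Nova1 and Nova2 encode KH-domain proteins of neurons. Nova1 (chr12:47795504-47919762, minus strand) had 5 exons of 160, 144, 167, 72 and 6457 nt, and its coding sequence in GENCODE M1 had 507 codons. Nova2 (chr7:19510698-19551031, plus strand) had 5 exons of 39, 319, 144, 167 and 8147 nt, with 583 codons. The exons of 144 and 167 nt were shared in length and paired as reciprocal best matches, at 76.4% and 65.7% nucleotide identity. No alternative splicing was annotated in either gene in these models. The 72-nt exon of Nova1, known from other work as an alternative exon on which NOVA1 acts, was part of the only Nova1 transcript, and without it the reading frame would run through to the same stop with 483 codons. This exon held 3 matches to CCAT and 0 to TCAT, the forms of YCAY that were searched together, and 1.98% of the 1163 coding internal exons of 72 nt held as many (median 0). The 150 bases of intron upstream held 3 matches to either motif and the 150 bases downstream held 6. In Nova2 the best window for the 72-nt exon matched 37 of 72 bases and the next best 36, so that no stretch stood apart from the rest.

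Ptbp1 encodes the polypyrimidine tract binding protein. Of its 17 transcripts, 11 had a protein identifier, and GENCODE M1 types 8 of these as protein coding and 3 as NMD. Cassette exons, meaning internal exons that another transcript skips by joining the same donor and acceptor, numbered 6 in Ptbp1, with lengths of 196, 31, 117, 30, 78 and 34 nt. The 78-nt exon was included in 3 transcripts and skipped in 4. As its length is a multiple of 3, the coding sequence had 1665 nt with it (555 codons) and 1587 nt without it (529 codons). The 34-nt exon was included in 5 transcripts, of which 4 were typed as protein coding and 1 as retained intron, and skipped in 2, both typed as NMD. In one of these, named Ptbp1-008, the coding sequence ended after 1059 nt with a stop 364 nt before the last exon junction. In the other, Ptbp1-017, whose start is incomplete, the stop lay 286 nt before it. A stop more than 50 nt before the last junction is the usual mark of an NMD target. The same was true of Ptbp1-202, with a stop 292 nt before the last junction, although GENCODE types it as protein coding; it skips the 34-nt exon too, along with its neighbours of 78 and 146 nt, and 1 of its introns, of 2581 nt, began with CA in place of GT. The third NMD transcript, Ptbp1-012, carried the 30-nt exon and had its stop 139 nt before the last junction.

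**Figure D2:**
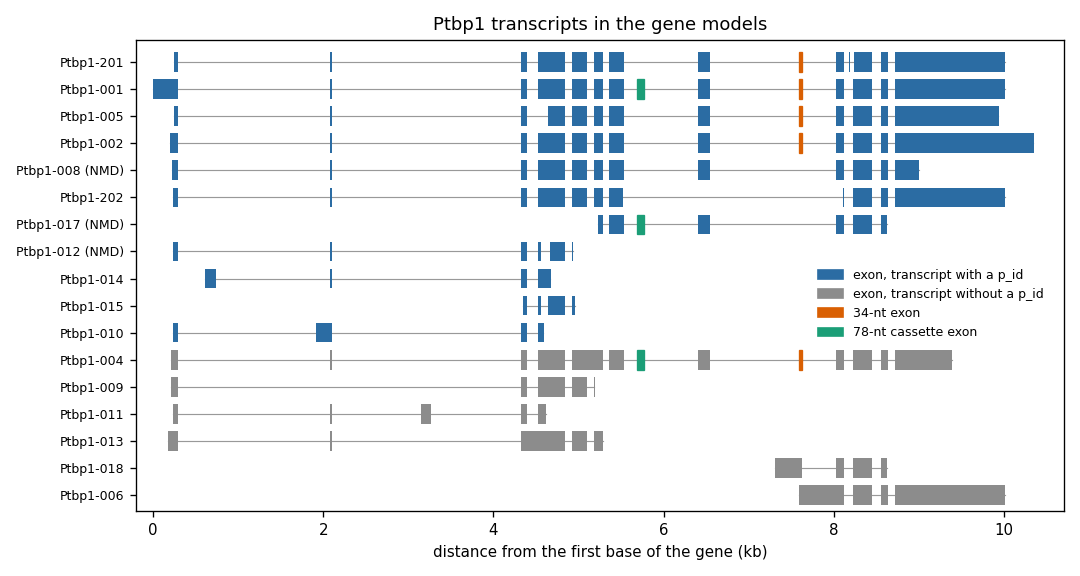
The 17 Ptbp1 transcripts drawn to scale by distance from the first base of the gene (x axis, kb), boxes being exons and lines introns, with GENCODE M1 names. The 34-nt exon (orange) is in 5 transcripts, and Ptbp1-008 and Ptbp1-017, both typed as NMD, join the exons on either side of it; the 78-nt exon (green) is in 3 transcripts.

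Other events of Ptbp1 lay in and around the 320-nt exon near the 5′ end of the coding sequence. Its acceptor was used 120 nt further in by a 200-nt form, and 17 nt beyond that by another. A short form kept only its first 30 nt, with introns of 90 or 107 nt cut from within it. These 2 introns counted as retained because 9 transcripts read through them, 6 of these with a protein identifier, so the read-through form was the common one. The other 4 retained introns of Ptbp1, the shortest of 79 nt, were each held by 1 transcript without a protein identifier. The longest of them, of 401 nt, follows the 34-nt exon directly. No retained intron was found in the other 9 members, but 4 of them had a single transcript and so could not have one. Of all loci with a protein identifier 18.0% had one, and of those with 2 or more transcripts 31.7%.

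Ptbp2, the neuronal paralogue (chr3:119421660-119486306, minus strand), had 1 transcript of 14 exons, with 532 codons. Its 34-nt exon, the one that PTBP1 is known to repress, was part of this transcript, and no transcript that skips it was annotated here. The exons of 34 nt in both genes paired with each other at 76.5% identity. Compared position by position without gaps, 23 of the 40 bases of intron after them were the same, against 14 of the 40 bases before them. A shifted match would be missed by this count. Among the 9 exon pairs of these genes, 23 was the highest number downstream. When the exon was taken out in silico, the frame from the regular start codon ended 364 nt before the last junction in both genes, after 379 codons in Ptbp1 and 356 in Ptbp2. Of the 9 pairs, 6 had the same length in both genes, namely the exons of 31, 111, 34, 93, 217 and 78 nt, the last being a constitutive exon and not the cassette exon of that length. A further difference lay in the 320-nt exon of Ptbp1. The Ptbp2 exons of 173 and 144 nt matched adjoining stretches of it, chr10:79321697-79321869 at 65.9% and chr10:79321870-79322013 at 68.8%, while the next best windows of the gene matched 65 of 173 and 57 of 144 bases. What is 1 exon in Ptbp1 was thus 2 in Ptbp2. The 78-nt cassette exon of Ptbp1 had no such match in Ptbp2, where the best window matched 37 of 78 bases and the next best 35.

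**Figure D3:**
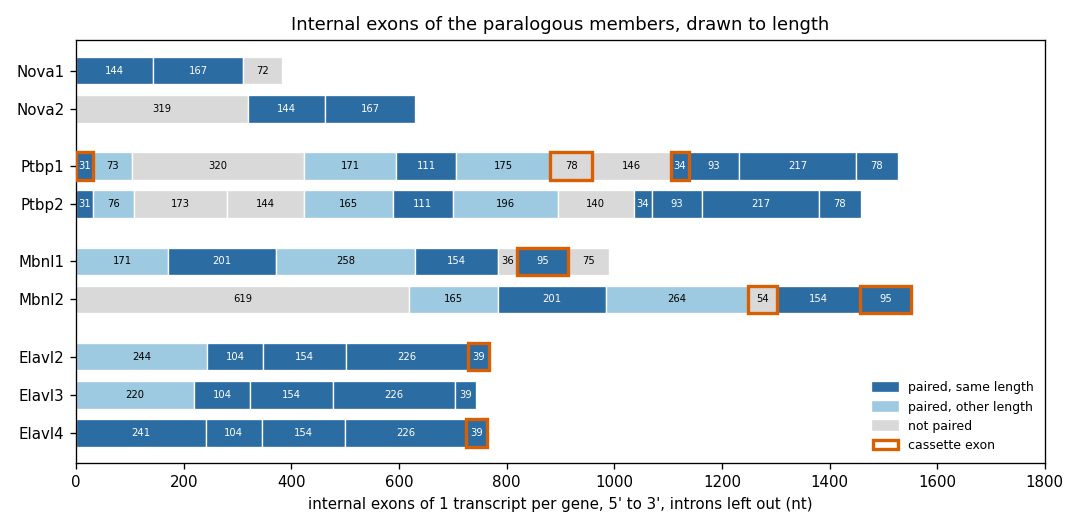
Internal exons of 1 transcript per gene for the paralogous members, 5′ to 3′, drawn to length in nt (x axis) with introns left out. Dark blue exons paired with an exon of the same length in a paralogue, light blue ones with an exon of another length, grey ones were not paired, and an orange outline marks a cassette exon; Elavl2, Elavl3 and Elavl4 share the run of 104, 154, 226 and 39 nt.

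Mbnl1 and Mbnl2 encode zinc finger proteins that are known for their sequestration in myotonic dystrophy. Both had 4 transcripts, all with a protein identifier. A 95-nt cassette exon was common to both genes and was the most alike of their 5 exon pairs, at 85.3% identity. Position by position without gaps, 22 of 40 bases of intron were the same upstream and 20 downstream. The exon was skipped in 1 transcript of each gene. Since 95 is not a multiple of 3, its loss moved the stop codon without an early stop of the kind seen in Ptbp1. In Mbnl2 the frame went from 373 to 379 codons. In the Mbnl1 transcript from which the exon was taken out in silico, the frame went from 289 to 249 codons. The annotated Mbnl1 transcript that skips the exon has 341 codons, from another start codon. The Mbnl1 stop lay 21 nt before the last junction with the exon and 46 nt before it without, both within 50 nt.

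Each of the Mbnl genes had a further short exon near this one that the other lacked in the models. Mbnl2 had a 54-nt cassette exon, included in 2 transcripts and skipped in 2, with coding sequences of 1119 nt with it and 1065 nt without it in the transcripts that are otherwise alike. None of the 4 Mbnl1 transcripts held an exon of 54 nt. Within an intron of Mbnl1, a stretch of that length nevertheless matched the Mbnl2 exon at 46 of 54 bases (85.2%), with AG before it and GT after it, while the next best window of the gene matched 28. In the other direction, all 4 Mbnl1 transcripts held a 36-nt exon, none of the 4 Mbnl2 transcripts did, and a stretch of 36 nt within a Mbnl2 intron matched it at 31 of 36 bases (86.1%), again with AG before and GT after, against 21 for the next best. Both counterparts follow, with the matching stretch in capitals, for comparison with the exons printed first. Whether they are spliced into transcripts in the NAc was not tested.
Mbnl1, intronic window of 54 nt, chr3:60418605-60418658, plus strand: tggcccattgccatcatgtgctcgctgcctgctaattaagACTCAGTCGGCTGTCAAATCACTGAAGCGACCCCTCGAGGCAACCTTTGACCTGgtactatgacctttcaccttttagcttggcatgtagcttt
Mbnl2, intronic window of 36 nt, chr14:120802558-120802593, plus strand: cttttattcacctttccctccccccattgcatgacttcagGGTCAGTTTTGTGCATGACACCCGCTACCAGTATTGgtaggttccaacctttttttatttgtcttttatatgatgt

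The 75-nt exon before the last exon of all 4 Mbnl1 transcripts had no such counterpart, as the best and the next best window of Mbnl2 both matched 36 of 75 bases. Mbnl1 differed from Mbnl2 at its 5′ end too. Its transcripts fell into 3 start groups with 3 annotated starts of the coding sequence, against 1 start group and 1 such start in Mbnl2. A 1049-nt cassette exon, partly coding as annotated in GENCODE M1, lay in 1 transcript. A 154-nt exon of Mbnl1 had a form of 49 nt that begins 105 nt further in, in 1 transcript of 254 codons.

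Srrm4, which encodes a serine- and arginine-rich protein of neurons, had 1 transcript with a protein identifier (13 exons, 608 codons) over 152.5 kb (chr5:116889281-117041826, minus strand). This transcript held an exon of 27 nt, the longest that is counted here as a microexon, followed by one of 51 nt. No transcript that skips either was annotated here. Of its 11 coding internal exons, 9 had a length divisible by 3. The other 2 transcripts, both typed as retained intron, began within introns, and all of their own introns were shared with the coding transcript. Internal exons of 27 nt or fewer made up 3 of the 87 internal exons of the members (3.45%), against 1.31% over all loci with a protein identifier. The others were exons of 14 and 8 nt in Ptbp1, each in 1 transcript. The 14-nt exon is the end of the 93-nt exon of other transcripts, and in Ptbp1-202 it follows the intron that began with CA. The 8-nt exon lay between introns of 67 and 43 nt in a transcript that differed in its exons from the GENCODE M1 entry of the same name.

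The Elavl genes encode Hu proteins with 3 RNA-recognition motifs, and the exons of 104, 154, 226 and 39 nt were the same in length in all 3 of them. The 39-nt exon, in the linker before the last of these motifs, was the most conserved of the exon pairs, at 87.2% identity between Elavl2 and Elavl3, 84.6% between Elavl2 and Elavl4 and 89.7% between Elavl3 and Elavl4. The flanking intron was less alike, with 9 to 11 of the 40 bases upstream and 11 to 16 downstream the same in the 3 pairs. Its annotation differed among the genes. In Elavl2 it was included in 6 transcripts and skipped in 4, with coding sequences of 1080 and 1041 nt in a pair of transcripts that start alike. In Elavl4 it was skipped in 1 transcript, which carries Cufflinks in place of a biotype and is not in GENCODE M1. In Elavl3 the 1 transcript included it. Without it the frame was kept in all 3 genes in silico, with 376 codons in place of 389 in Elavl2, 354 in place of 367 in Elavl3 and 372 in place of 385 in Elavl4.

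Elavl2 and Elavl4 differed further at their ends. The coding sequence had 3 annotated starts among Elavl2 transcripts and 6 among Elavl4 transcripts. Each had a cassette exon that adds an alternative 5′ end of the coding sequence, of 91 nt in Elavl2 (chr4:90978264-90978354) and 87 nt in Elavl4 (chr4:109928024-109928110). Elavl2 had 2 pairs of acceptors that lie 3 nt apart, at the 244-nt exon and at the last exon, and Elavl4 had a pair 42 nt apart at the last exon. These are shown with the stretch between both acceptors in capitals, at the position given. In each case the intron ends with AG at both sites. The 3-nt step at the last exon removed 1 codon, and the 42-nt step added 14 codons to Elavl4 (1155 against 1113 nt of coding sequence).
Elavl2, last exon, chr4:90920259-90920261, minus strand: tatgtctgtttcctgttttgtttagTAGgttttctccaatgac
Elavl2, 244-nt exon, chr4:90975543-90975545, minus strand: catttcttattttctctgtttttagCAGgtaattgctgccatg
Elavl4, last exon, chr4:109879265-109879306, minus strand: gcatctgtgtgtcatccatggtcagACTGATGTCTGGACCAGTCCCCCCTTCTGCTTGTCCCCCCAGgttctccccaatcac

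Among all members, 12 of 57 transcripts (21.1%) had no protein identifier, against 30.4% over all loci with one. Ptbp1 had 6 of these, and Srrm4, Elavl2 and Elavl4 had 2 each. GENCODE M1 types 6 as retained intron and 6 as processed transcript, although the biotype in the models reads protein coding for 56 of the 57 transcripts, including all 12. They were 369 to 6555 nt long. All 12 shared at least 1 intron with a coding transcript and 7 shared every intron. Of the 12, 6 began inside an intron of the coding transcripts, and 4 held such an intron whole. For Ptbp1-009, among these 4, this was only the introns of 90 and 107 nt, which 6 transcripts with an identifier also read through. Having an identifier did not mean that the coding sequence was complete: of the 45 transcripts with one, 8 had an open start or end in GENCODE M1.

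Cassette exons numbered 14 in 5 of the 10 members, namely 6 in Ptbp1 and 2 each in Mbnl1, Mbnl2, Elavl2 and Elavl4. The share of genes with a cassette exon was 26.9% over all loci with a protein identifier. It was 47.3% over those with at least 2 transcripts. A gene with a single transcript, as 4 of the members are, cannot have a cassette exon by this definition. Of the members with more transcripts, only Srrm4 had none. Of the 14, 7 had a length divisible by 3, beside 51.3% of the 10846 cassette exons of all loci. Of the coding internal exons of the members, spliced or not, 46.6% had such a length, beside 40.9% of all. Taking out 1 coding exon at a time in silico left the rest of the frame in place for 34 of 73 exons, and the other exons shifted it, with a stop more than 50 nt before the last junction for 28 and a stop elsewhere for 11. The 30-nt exon of Ptbp1 is counted among the 34, although its transcript, typed as NMD, had an early stop with the exon and without it. Exons that shifted the frame to an early stop were 7 of 16 in Ptbp1, 7 of 12 in Ptbp2 and 3 of 5 in each Elavl gene. They were 2 of 7 in Mbnl1, 2 of 11 in Srrm4 and 1 of 3 in Nova2, and Nova1 and Mbnl2 had 0. The 7 of Ptbp1 include the 320-nt exon and its 200-nt form as separate entries.

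**Figure D4:**
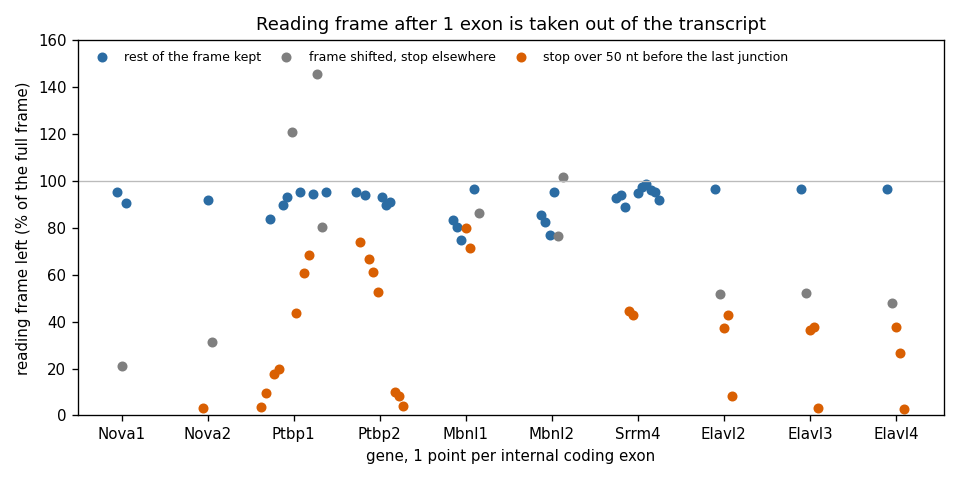
Length of the reading frame that is left after 1 coding internal exon is taken out in silico (y axis, percent of the full frame), 1 point per exon of each gene. Blue points keep the rest of the frame (34 exons), orange points lose the frame and have a stop more than 50 nt before the last junction (28), and grey points lose it with a stop elsewhere (11); the highest blue points of Elavl2, Elavl3 and Elavl4 are the 39-nt exon.

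Motifs were searched on the strand of the transcript in 150 bases of intron on either side of the 14 cassette exons, and not on the opposite strand. TGCATG, the motif of RBFOX proteins (A2BP1 and its paralogues), was found downstream of 6 of the 14 (42.9%), while 7.58% of the other cassette exons had a match there. The 6 exons include those of 196, 31, 117 and 78 nt of Ptbp1, so that 1 gene gave most of them. Of these Ptbp1 exons, only that of 78 nt is a cassette exon when transcripts without a protein identifier are left out. The exons of 196 and 31 nt of Ptbp1 share a donor, so the 6 exons stood for 5 of 13 different windows. TGCATG was 1 of 8 motifs searched, each on both sides. The match began 26 bases after the 54-nt exon of Mbnl2, 29 after the 78-nt exon of Ptbp1, 108 after the 39-nt exon of Elavl2 and 119 after the 31-nt exon of Ptbp1. The remaining one lay after the 117-nt exon of Ptbp1. With 100 bases of flank the count was 2 of 14 (5.47% of the others), and with 300 bases it was 8 of 14 (12.7%). The Mbnl1 window that matches the 54-nt exon held no TGCATG in its 150 bases downstream. Upstream, 2 of the 14 exons had a match, beside 5.67% of the others, and with 100 bases 0 of the 14, beside 3.67%. A TGCATG also ended 8 bases before the 36-nt exon of Mbnl1 and 7 bases before the matching Mbnl2 window, and another began 23 bases after the 27-nt exon of Srrm4; these exons are not cassette exons in the models.

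Short motifs assigned to the members' own proteins were searched in the same windows of 150 bases. These were TCAT and CCAT for NOVA, TCTT and CTCTCT for PTB, TGCT and GCTT for MBNL and TTTTTT for ELAV-like proteins. TCAT and CCAT are only some forms of YCAY, TGCT is only 1 form of YGCY, and GCTT is not a form of YGCY. TCAT was upstream of 42.9% of the members' cassette exons and of 47.9% of the others, and downstream of 57.1% and 44.7%. CCAT was upstream of 42.9% and 44.8%, and downstream of 64.3% and 44.0%. TCTT stood at 57.1% and 73.3% upstream and 42.9% and 60.9% downstream, and CTCTCT was in 0 of the 14 windows on either side, beside 14% of the others upstream and 8.89% downstream. TGCT was upstream of 78.6% and 61.1%, and downstream of 57.1% and 60.1%; GCTT was in 64.3% on either side, beside 51.7% and 51.4%. TTTTTT was in 21.4% on either side, beside 17.1% and 11.8%. The order of members and others turned with the flank in several cases. With 100 bases, CCAT was upstream of 42.9% and 33.7%, TGCT downstream of 50% and 46.9% and TTTTTT upstream of 7.14% and 14.3%. With 300 bases, TCTT was downstream of 85.7% and 82.4%. The order did not turn for CTCTCT upstream, which with 300 bases was at 2 of the 14 (14.3%), beside 19.8%. The highest counts were those of single exons. Upstream of the 95-nt exon of Mbnl2 lay 7 TGCT and 5 CCAT, numbers reached by 0.0831% and 0.166% of the other cassette exons. The 95-nt exon of Mbnl1 had 4 CCAT upstream, reached by 0.637%. Downstream of the 39-nt exon of Elavl4 lay 13 overlapping TTTTTT, reached by 0.619%. With 8 motifs and 14 exons searched, these exons were picked out after their counts were seen, and a match is a run of letters and not a site of binding.

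Of the 120 introns in members' transcripts with a protein identifier, 116 began with GT and ended with AG (96.7%), beside 97.4% of 214687 introns of all loci. The 3 that began with GC were all in Elavl2, and the 1 other was the CA intron of Ptbp1-202. Paralogues outside the members (6 genes) had a median of 6.0 transcripts and 42.1% without a protein identifier, the RBFOX genes (3 genes) 8.0 and 7.69%, and other splicing regulators of brain (10 genes of the CELF, KHDRBS and QK families) 4.5 and 28.6%. The median span was 54.1, 421.8 and 96.4 kb in these lists, and a cassette exon was annotated in 5 of 6, 3 of 3 and 4 of 10 of their genes.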

How the data were processed

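RNA-seq of 12 NAc pools was processed by the authors with CASAVA, TopHat, Cufflinks and Cuffdiff per the submitters' notes (versions: not given in the sources used here), against mm9 and Ensembl NCBIM37.62. The deposited data used here are a set of gene models (exon start and end per transcript, with locus, start group and protein identifier). The class code is = throughout. Positions are those of the genome and there are no columns of values per sample, so no comparison of cocaine with saline was made. Members were found by gene name; they, the comparison lists and the motifs were chosen with earlier results of these data known.

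Coding sequences and types came from GENCODE M1 (NCBIM37), in which 56 of the 57 transcripts were found, 55 with the same exons. Sequences came from the NCBIM37 genome, in whose 21 chromosomes compared no transcript ran past an end. Cassette exons needed a skipping intron with the same donor and acceptor. Retained introns needed an exon that holds the whole intron. Alternative sites were internal exons that share 1 boundary. Paired exons were reciprocal best matches of at least 60% identity in a global alignment (match 1, mismatch -1, gap opening -2, gap extension -0.5). Exons without a pair were compared with every window of the paralogue without gaps. Flanking bases of intron were compared position by position without gaps, so that a shifted match is missed. Frames were read from the annotated start codon to the first stop. Each exon was taken from the transcript with the longest frame, among those whose coding sequence begins with ATG and ends at the first stop. Motif windows had 150 bases, and matches may overlap. The exons named were the cassette exons in coding sequence; counterparts in paralogues and the exons of Nova1, Mbnl1 (36 nt) and Srrm4 were chosen after the models were seen. The classifiers were tested on simulated data. Python 3.11.15, numpy 2.4.6, Biopython 1.88 and matplotlib 3.10.9 were used. Expression, depth and alternatives that leave out a pool were not analysed here.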

Additional observations from a re-analysis of the deposited data

How the results depend on the processing

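The count of member transcripts (57), coding sequences, start groups, cassette exons, cassette exons of a length divisible by 3 and retained introns stayed within 1.5 times its value under each alternative tried for it; cassette exons ranged from 11 (transcripts with a protein identifier only) to 16 (any intron that spans the exon), and start groups from 26 to 48. The count of transcripts without a protein identifier was 12, or 13 without a coding sequence in GENCODE M1, but 1 by the biotype in the models, which reads protein coding for the rest. Microexons went from 3 to 14 when the limit was 51 nt. Alternative donor and acceptor sites numbered 11, and 7 when pairs of introns that share 1 end were counted, with first and last exons included, an alternative chosen after seeing the data. Motif matches in the flanks went from 197 with 150 bases to 376 with 300 bases and 147 with 100, as longer windows hold more letters. No paired analysis was possible because the models hold no value of any pool. Identities, frames and windows rest on 1 genome and 1 annotation, and an annotated transcript is no measure of its use in the NAc.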
